A study of Mus musculus with 54 samples.

Results

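The C1_5F1 comparison set 2 libraries of intestinal adenoma, 5_2 and 5_4, against 2 libraries of normal intestinal mucosa, 5_1 and 5_3. These are the columns that the labels name C1_5F1 ad and C1_5F1 no. They make up 4 of the 54 samples of the series and 4 of the 46 MeDIP libraries that have a column of counts. All 4 came from F1 mice of C57BL/6 (B6) and a chromosome substitution strain, which is B6 except for chromosomes 1 and 5 taken from the strain PWD. All 4 carried the Min allele of Apc, the normal mucosa included, and the mice were 15 to 19 weeks old. Methylated fragments were pulled down by a 5-methylcytosine antibody, and the labels state no treatment of the mice. The series compared adenoma, normal Apc Min mucosa and wild type mucosa in B6, PWD and crosses of them. The labels name no animal, so p-values here measure a spread between libraries. The main edgeR tests estimated this spread within 15 groups of all 46 MeDIP libraries, not from the 4 C1_5F1 libraries alone.

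Apc is the scaffold of the complex that degrades beta-catenin, and the Min allele truncates it. Loss of the remaining normal copy in an intestinal cell lets Wnt signalling run unchecked and starts an adenoma. In methylated DNA immunoprecipitation (MeDIP) the antibody binds methylated cytosines, mostly in CpG pairs, so a count follows both the methylation of a window and its number of CpGs. CpG islands at gene starts are mostly unmethylated in normal tissue, and in intestinal tumours some gain methylation. Captured DNA of bulk tissue cannot tell fewer cells of a type from less methylation per cell.

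Promoter sequences of 3 genes are shown because the stretch at their start had its highest scaled count in adenoma 5_4. At Slc9a3 this rested on 5 counts in 5_4, too few to tell the libraries apart. At Cbln4 the excess of 5_4 over normal mucosa was 0.96 ± 0.517 (SE) on the log2 scale, which leaves it uncertain. Each run holds the 250 bases before the transcription start in the RefSeq table of GRCm38.p6, the same build as mm10, written 5′ to 3′ on the gene's strand with each CpG in capitals.
Itpka, chr2:119742087-119742336, plus strand: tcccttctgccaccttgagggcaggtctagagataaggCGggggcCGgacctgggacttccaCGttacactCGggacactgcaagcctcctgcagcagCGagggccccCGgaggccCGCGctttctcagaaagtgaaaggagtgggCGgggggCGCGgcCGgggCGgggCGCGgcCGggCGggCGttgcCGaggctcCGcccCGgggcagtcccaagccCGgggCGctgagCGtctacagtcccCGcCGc
Cbln4, chr2:172043467-172043716, minus strand: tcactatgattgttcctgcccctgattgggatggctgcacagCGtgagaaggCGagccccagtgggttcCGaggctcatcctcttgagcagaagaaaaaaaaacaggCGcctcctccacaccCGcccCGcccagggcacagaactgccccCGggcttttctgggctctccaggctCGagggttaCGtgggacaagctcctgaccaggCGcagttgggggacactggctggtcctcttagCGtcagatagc
Slc9a3, chr13:74121163-74121412, plus strand: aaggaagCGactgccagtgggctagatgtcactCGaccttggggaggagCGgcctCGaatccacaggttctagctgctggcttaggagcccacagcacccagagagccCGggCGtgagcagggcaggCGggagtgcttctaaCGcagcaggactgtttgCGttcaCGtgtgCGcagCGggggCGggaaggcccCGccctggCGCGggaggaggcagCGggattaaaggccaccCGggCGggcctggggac
Itpka holds 26 CpGs in this stretch, Cbln4 11 and Slc9a3 19. The median over 32851 promoters of the table is 6 CpGs, with quartiles of 2 and 16.

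Each library had counts in windows of 250 bp, with totals of 13261119 in normal mucosa 5_1, 15269759 in adenoma 5_2, 15653236 in normal mucosa 5_3 and 8358806 in adenoma 5_4. The total of 5_4 was the lowest of all 46 libraries. Levels are given below as CPM, which are counts divided by library size after scaling. CPM values follow captured DNA and are not a percent of methylated cytosines.

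The library labelled adenoma 5_2 stood near normal mucosa at windows that differed in adenomas of other strains. Whether its tissue label is right was not tested. To place the libraries, 100 windows of lowest p were taken from the adenoma comparison in the other 4 strains (B6, B6xPWD, C5 and C5F1, with 14 adenomas and 12 normal mucosa libraries), which share no sample with C1_5F1. Positions are the summed CPM on a scale from 0, the mean of those normal mucosa libraries, to 100, the mean of those adenomas. At the 43 windows that were higher in adenomas, normal mucosa 5_1 stood at 27.8, the library labelled adenoma 5_2 at 8.07, normal mucosa 5_3 at 23.7 and adenoma 5_4 at 138. At the 57 windows that were lower in adenomas, the positions were 8.93, -0.695, 12.3 and 122 in the same order. Adenoma 5_4 therefore lay at or past the adenoma mean in both directions, and the library labelled adenoma 5_2 lay below both normal mucosa libraries in both.

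The other strains gave the spread to read these positions against, with each library placed by windows chosen without its own strain. The 14 adenomas ran from 21.1 to 164 at the higher windows and from 9.85 to 110 at the lower windows. The 12 normal mucosa libraries ran from -5.43 to 60.4 and from -4.32 to 44.0. The library labelled adenoma 5_2 was thus under the lowest adenoma in both directions, and 5_4 was above the highest normal mucosa library in both. Some adenomas of the other strains also lay among their own normal mucosa, in a single direction. At the lower windows B6xPWD adenoma 11_5 stood at 9.85, and its normal mucosa at 9.98, 14.5 and 26.7. At the higher windows C5 adenoma 16_3 stood at 21.1, under C5 normal mucosa 12_2 at 29.3. In the other direction they stood at 48.8 and 73.5, above the normal mucosa of their strains. With a fit that left the C1_5F1 libraries out, the higher windows gave 9.21 for 5_2 and 141 for 5_4, and the lower windows gave -4.32 and 124.

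**Figure D1:**
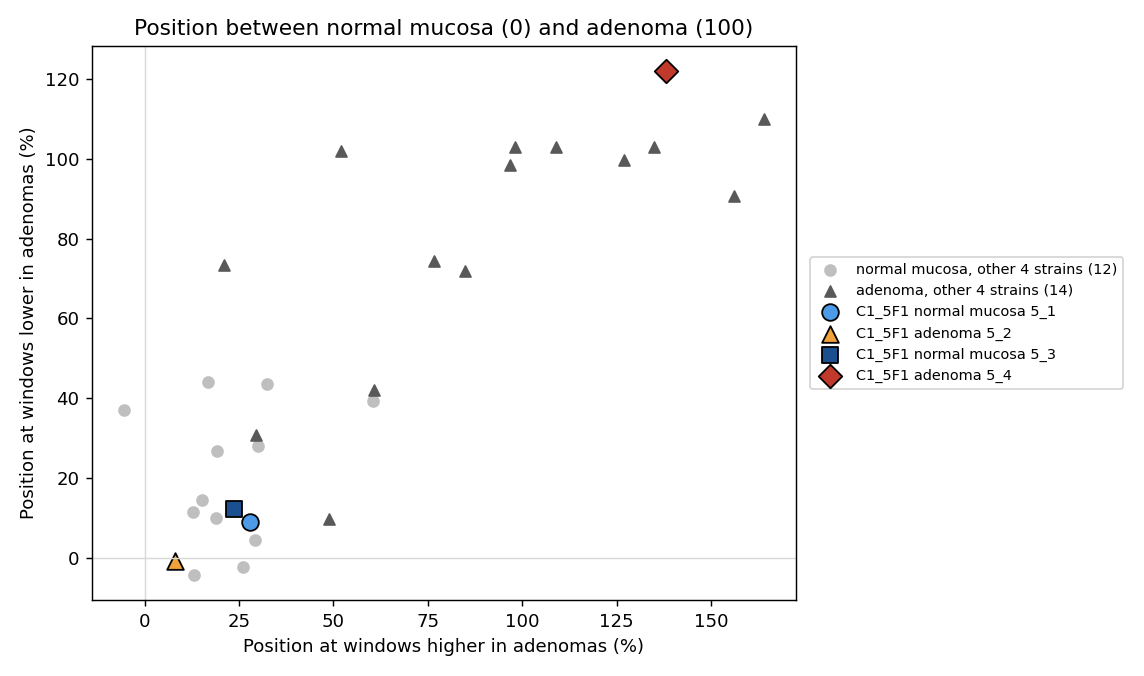
Position of each Apc Min library between normal mucosa (0) and adenoma (100), in percent, at windows higher in adenomas (x axis) and lower in adenomas (y axis) of the other 4 strains, with 1 point per library. Adenoma 5_4 stands at 138 and 122, while the library labelled adenoma 5_2 stands at 8.07 and -0.695, beside the 2 C1_5F1 normal mucosa libraries.

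Over the autosomes other than 1 and 5, the counts of normal mucosa 5_1 and the library labelled adenoma 5_2 differed by less than the sampling noise. Their index of dispersion, which is 1 for counting noise alone, was 0.964 over windows and 0.983 over tiles of 10 kb, and the chi-square test of an excess gave p = 1.0 for each. Of the 46 adenoma and normal mucosa pairs within a strain, 1 had a lower index than this pair. In the 42 such pairs of the other 4 strains the index over tiles ran from 0.976 to 4.22, with a median of 1.44. In the 17 of them whose sample names share the first number, as those of C1_5F1 do, it ran from 0.976 to 1.74, with a median of 1.09. Over windows, 6 of the 42 pairs were also below 1. The mean summed count of a tile was 121 for 5_1 with 5_2 and 146 to 213 in the 42 pairs. This unlike depth was not adjusted for. Adenoma 5_4 differed from the others by more, with tile indices of 1.31 against 5_1, 1.39 against 5_2 and 1.59 against 5_3. Over tiles the pair of 5_2 and 5_3 had 1.07, and the pair of both normal mucosa libraries had 1.10. Over windows these pairs too were below counting noise, at 0.981 and 0.978, and the 3 pairs with 5_4 had 1.07 to 1.09. Such an index is an average and can hide single tiles. At chr18:64330001-64340000 the library labelled adenoma 5_2 had 145 counts, where 5_1 had 20, 5_3 had 36 and 5_4 had 12.

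The 4 libraries also fell into pairs by the PWD segments they inherited. Here the scale ran from 0, the mean of B6 wild type mucosa, to 100, the mean of PWD wild type mucosa, over windows that differed at least 2-fold between those strains. On chromosome 1 up to 70 Mb, 5_1 stood at 45.9% and 5_2 at 46.6%, while 5_3 stood at 3.42% and 5_4 at 1.89%. From 80 Mb on, all 4 lay between 44.4% and 45.3%. The change in 5_3 and 5_4 fell between the bin of 74 to 76 Mb, with 7.04% and 8.89%, and the bin of 76 to 78 Mb, with 39.7% and 39.9%.

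Chromosome 5 showed no such split. Up to 110 Mb the 4 libraries lay between 46.9% and 48.4%, close to the 48.9% of C5F1 normal mucosa. From 130 Mb on they lay between 5.05% and 7.91%, where C5F1 normal mucosa stood at 49.4%. The step lay between the bin of 118 to 120 Mb, with 44.2% to 51.4%, and the bin of 120 to 122 Mb, with 7.24% to 17.1%. The labels name PWD chromosomes 1 and 5 with no end point, so the end of chromosome 5 in these 4 libraries, and the start of chromosome 1 in 5_3 and 5_4, went against a whole PWD chromosome.

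**Figure D2:**
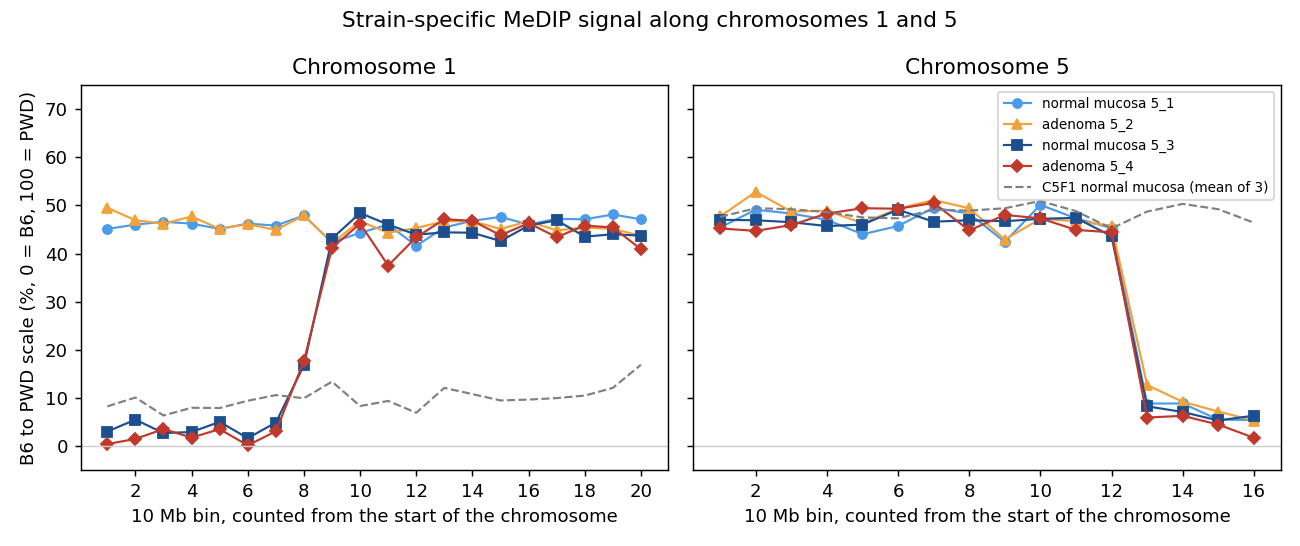
Position on the B6 (0) to PWD (100) scale, in percent, along chromosomes 1 and 5 in bins of 10 Mb, for the 4 C1_5F1 libraries and the mean of 3 C5F1 normal mucosa libraries. On chromosome 1 up to 70 Mb normal mucosa 5_1 and the library labelled adenoma 5_2 stand at 45.9% and 46.6%, and 5_3 and 5_4 at 3.42% and 1.89%.

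Adenoma 5_4 further differed in how its counts were spread over CpG density, a score deposited for each window. Windows with a score of 10 or more, called CpG-dense here, held 6.65% of the autosomal counts of 5_1, 6.44% of 5_2, 6.08% of 5_3 and 7.76% of 5_4. The groups overlapped, since 5_2 lay between the normal mucosa libraries. The mean was 7.10% ± 0.930 (SD, n = 2) in adenomas and 6.36% ± 0.406 (SD, n = 2) in normal mucosa, and an exact two-sided permutation test gave p = 0.667. With 2 libraries a group this test cannot pass 0.05.

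At windows with a score of 20 or more, the share of counts in 5_4 was 1.35 times the median of the 26 Apc Min libraries of the other 4 strains, which ran from 0.481 to 1.21 times. At scores of 0 to 1 it was 0.882 times, inside their range of 0.776 to 1.19. The library labelled adenoma 5_2 stood at 0.988 and 1.13 times in these classes. Adenoma 5_4 thus combined the lowest depth with the highest share in CpG-dense windows of the 4 libraries.

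**Figure D3:**
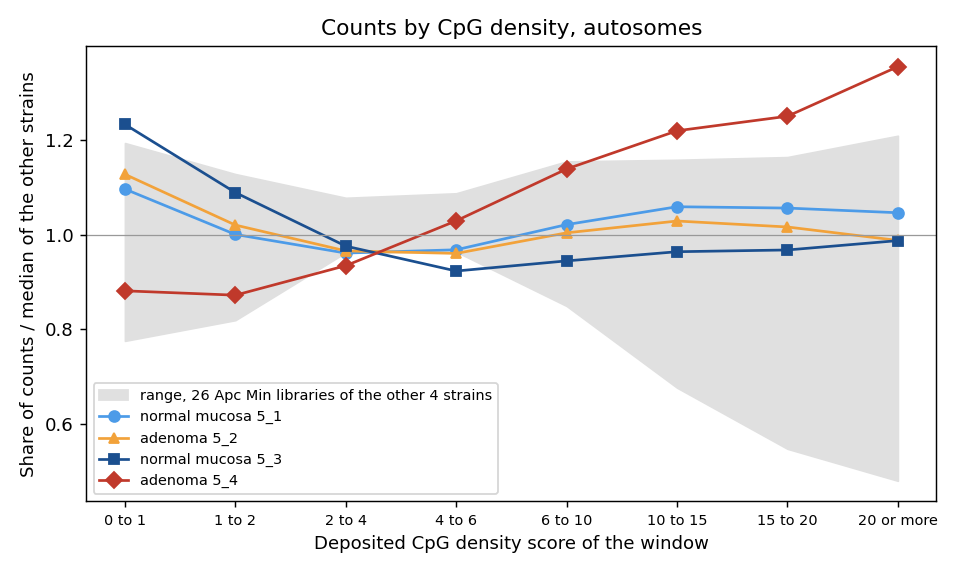
Share of counts in each class of deposited CpG density, divided by the median of the 26 Apc Min libraries of the other 4 strains, whose range is shaded, with 1 line for each C1_5F1 library. Adenoma 5_4 lies above that range from the class of 10 to 15 upward and reaches 1.35 at scores of 20 or more.

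Adenoma was then compared with normal mucosa over all autosomal features, using both libraries of each group. No gene end, CpG-dense region, 10 kb tile or window was called at an adjusted p under 0.05 with edgeR's quasi-likelihood test. A gene end is the stretch from 1000 bp outside to 500 bp inside the start of a protein-coding gene. Of 12046 gene ends tested 0 were called, or 0.0%, and 418 had an unadjusted p under 0.05, or 3.47%. DESeq2 called 0 and put 219 under that limit.

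Of 49024 CpG-dense regions 0 were called, or 0.0%, with edgeR, while 1402 reached an unadjusted p under 0.05, or 2.86%. The same fit had 8649 of 236763 tiles under that limit, or 3.65%, and 41817 of 1172069 windows, or 3.57%, with 0 called in each, or 0.0%. DESeq2 called 0 regions, with 626 under that limit, and 0 tiles, with 5469.

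Both adenoma libraries lay above both normal mucosa libraries at 1954 gene ends, or 16.2%, and below both at 2003, or 16.6%. Among CpG-dense regions these shares were 15.7% and 17.1%. Up and down were therefore about as frequent, and the groups overlapped at most features. With 2 libraries a group, random order alone puts about this share of features on each side, so these counts show no difference between the groups.

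Taken apart by inherited segment, the pairs differed in size. The library labelled adenoma 5_2 against normal mucosa 5_1 had 5887 tiles under an unadjusted p of 0.05, or 2.49%, and 404 gene ends, or 3.35%. Adenoma 5_4 against normal mucosa 5_3 had 16115 tiles, or 6.81%, and 589 gene ends, or 4.89%. With the library labelled 5_2 left out, 5_4 against both normal mucosa libraries had 15657 tiles, or 6.61%, and 574 gene ends, or 4.77%. Among CpG-dense regions the numbers were 1455, or 2.97%, for 5_2 against 5_1, 1791, or 3.65%, for 5_4 against 5_3, and 1826, or 3.72%, for 5_4 against both. None was called by edgeR in any of these, each of which has a lone adenoma that is assumed to vary like the libraries of the other groups. After offsets by CpG density the tiles under that limit numbered 7321 for 5_2 against 5_1 and 13017 for 5_4 against 5_3. The lower depth of 5_4 moved with these counts, and its part was not tested. On chromosome 1 up to 70 Mb, 427 of 6695 tiles had an unadjusted p under 0.05 between 5_4 and 5_3, and 185 between 5_2 and 5_1.

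The regions that changed in adenomas of the other 4 strains were next looked up in C1_5F1. There edgeR called 79 CpG-dense regions, or 0.161% of those tested, of which 35 were higher and 44 lower in adenomas. Adenoma 5_4 was above both C1_5F1 normal mucosa libraries at 27 of the 35 higher regions, or 77.1%, where the share over all tested regions was 34.3%. It was below both at 37 of the 44 lower regions, or 84.1%, against 35.7% over all tested. The library labelled adenoma 5_2 was above both at 10 of 35, or 28.6%, against 32.1% over all, and below both at 12 of 44, or 27.3%, against 34.2%.

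**Figure D4:**
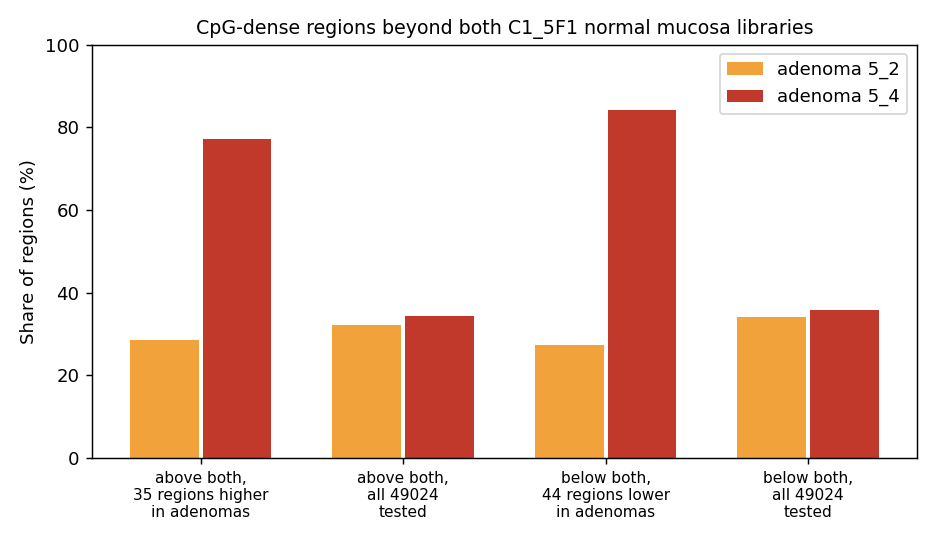
Share of CpG-dense regions, in percent, at which each library labelled adenoma lies above or below both C1_5F1 normal mucosa libraries, for regions called in the other 4 strains and for all regions tested. Adenoma 5_4 reaches 77.1% and 84.1% at the called regions, and the library labelled adenoma 5_2 stays at 28.6% and 27.3%, below its shares over all regions.

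Counted by the sign of the difference, 5_4 against 5_3 went the way of the other strains at 68 of the 79 regions, or 86.1%, against 52.0% of all regions tested. At 20 of them the unadjusted edgeR p was under 0.05 in the same direction, where 2.06% of all regions passed, and at 0 in the opposite one. The library labelled adenoma 5_2 against 5_1 went that way at 36, or 45.6%, against 48.9% of all regions. With both adenomas the count was 63, or 79.7%, and without 5_2 it was 71, or 89.9%, against 51.0% and 52.3%. Without 5_2, 25 of the 79 were under an unadjusted edgeR p of 0.05 in that direction, where 2.09% of all regions were.

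The median difference in the direction of the other strains was 0.90 on the log2 scale for 5_4 against 5_3 and -0.13 for 5_2 against 5_1. In the other strains themselves it was 0.83. After offsets by CpG density, 66 of the 79 regions had that direction for 5_4 against 5_3, or 83.5%. The 44 lower regions summed to 38.1 CPM in 5_4, where 5_1 had 68.0, 5_2 had 67.2 and 5_3 had 68.0. The 35 higher regions summed to 43.0 CPM in 5_4 and to 23.3, 20.4 and 23.6 CPM in 5_1, 5_2 and 5_3.

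The called regions that were higher in adenomas had a median density score of 16.5, against 11.9 for those that were lower and 11.8 for all tested. With chromosomes 1 and 5 left out, 29 higher and 41 lower regions remained. On the scale from normal mucosa to adenoma of the other strains, 5_4 stood at 119 and 135 there, and the library labelled adenoma 5_2 at 2.79 and 21.9. Normal mucosa 5_1 stood at 16.8 and 23.1, and normal mucosa 5_3 at 19.8 and 20.7.

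The genes of these regions, higher and lower, are named from the called regions of lowest p and were picked with their values in view. In C1_5F1 itself no region reached an adjusted p under 0.05, and the p-values below are unadjusted ones from edgeR without the library labelled 5_2.

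The region at Otop2 and Ush1g (chr11:115318001-115319250) led the other strains, with a log2 difference of 1.72 and an adjusted edgeR p of 1.86e-08. Otop2 encodes a proton channel of the otopetrin family, and Ush1g a scaffold protein of hair cells. It had 1.32 CPM in 5_1, 0.807 in 5_2, 0.586 in 5_3 and 3.60 in 5_4, and 5_4 was the highest. Both 5_1 and 5_4 exceeded the highest normal mucosa library of the other strains, at 1.16 CPM, and 5_4 lay at their adenoma median of 3.50. Adenoma 5_4 exceeded both normal mucosa libraries by 1.93 ± 0.523 (SE) on the log2 scale, with an unadjusted p of 0.000563 from 38 counts.

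Zfp503, a zinc finger repressor of development, had its region at chr14:21984751-21986750. Its levels were 0.764 CPM in 5_1, 0.621 in 5_2, 0.651 in 5_3 and 3.88 in 5_4, and only 5_4 was high. The difference of 5_4 from normal mucosa was 2.45 ± 0.733 (SE) on the log2 scale, with an unadjusted edgeR p of 0.00156. Adenomas of the other strains had a median of 2.15 CPM and normal mucosa 0.642.

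Cbln4, which encodes a secreted synapse organiser and whose promoter is shown above, had 0.834, 0.310, 0.912 and 1.70 CPM in 5_1, 5_2, 5_3 and 5_4 over chr2:172041751-172043750. Again 5_4 was highest, and the library labelled adenoma 5_2 was lowest. The difference without 5_2 was 0.96 ± 0.517 (SE) on the log2 scale, with an unadjusted edgeR p of 0.0692, which does not reach 0.05. Slc9a3, the sodium-proton exchanger of the enterocyte brush border, had 0.0695, 0.0621, 0.130 and 0.474 CPM, from 1, 1, 2 and 5 counts. These counts are too few to tell the libraries apart, with an unadjusted edgeR p of 0.101 without 5_2. The highest normal mucosa library of the other strains, at 0.0917, was exceeded by 5_4 and also by normal mucosa 5_3.

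Plcd3, a phospholipase C, had 0.417, 0.248, 0.0651 and 1.14 CPM in the same order of libraries, and 5_4 exceeded normal mucosa by 2.24 ± 0.818 (SE) on the log2 scale with an unadjusted edgeR p of 0.00848. Onecut3, a homeobox transcription factor, had 0.208, 0.0621, 0.195 and 0.852 CPM at chr10:80502751-80503250. At a second called region of Onecut3 (chr10:80513751-80514250), with 0.695, 0.434, 1.17 and 1.33 CPM, 5_4 lay near normal mucosa 5_3, and the unadjusted edgeR p without 5_2 was 0.429. Aldh1b1, a mitochondrial aldehyde dehydrogenase, had 1.67, 1.68, 1.5 and 3.41 CPM, with 5_2 level with normal mucosa. At Galnt13, a glycosyltransferase, 5_4 did not take part: its 0.474 CPM lay below the 0.625 and 0.651 of normal mucosa.

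**Figure D5:**
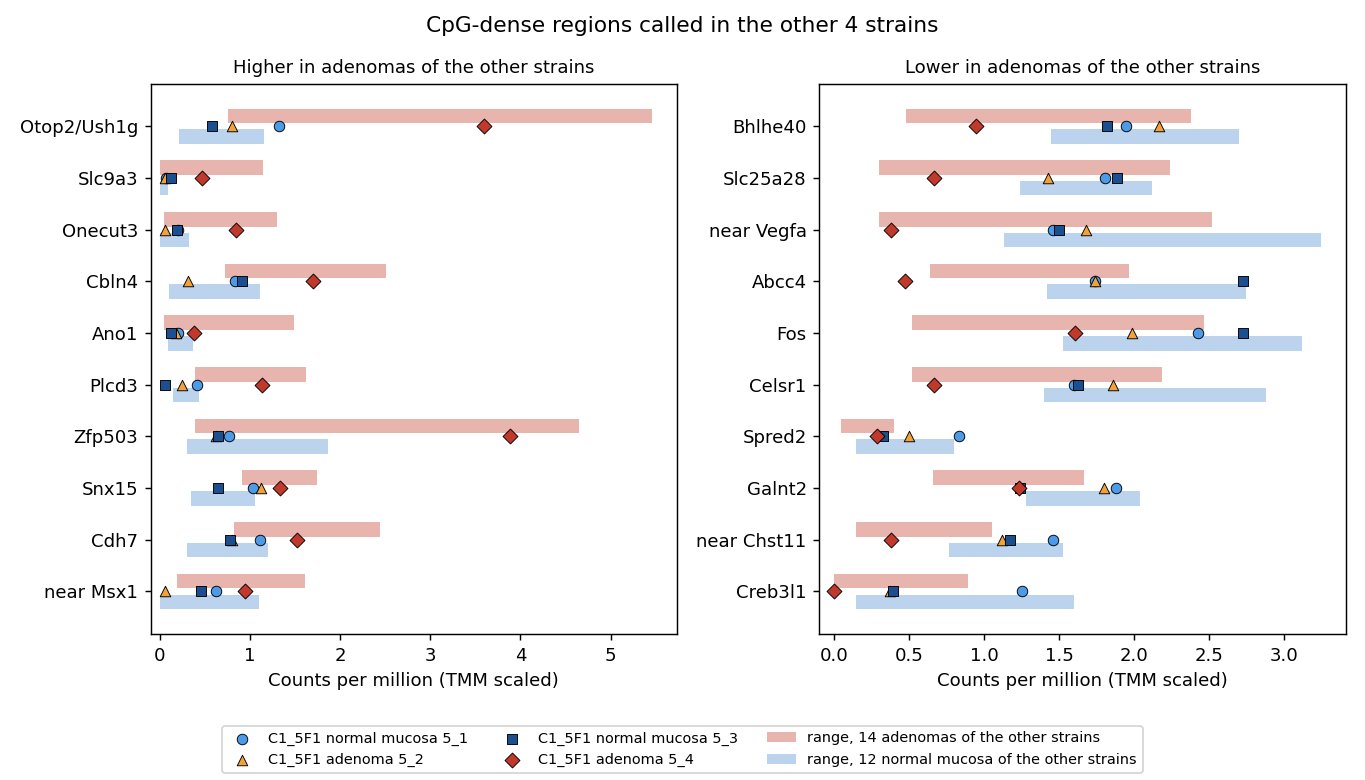
Levels in CPM of the 4 C1_5F1 libraries at the 10 higher and 10 lower CpG-dense regions of lowest p in the other 4 strains, over bars for the range of their 14 adenomas and 12 normal mucosa libraries. Adenoma 5_4 lies at 3.60 CPM at Otop2/Ush1g and 0.474 CPM at Abcc4, apart from the other 3 libraries.

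The regions lower in adenomas included Abcc4. Abcc4, an exporter of cyclic nucleotides and other anions, had 1.74 CPM in 5_1, 1.74 in 5_2, 2.73 in 5_3 and 0.474 in 5_4 over chr14:118658001-118658500. Adenoma 5_4 was low, with 5 counts where 5_1, 5_2 and 5_3 had 25, 28 and 42. It lay below the lowest adenoma of other strains at 0.638, but by few reads at its depth. Its difference from normal mucosa was -2.23 ± 0.589 (SE) on the log2 scale, with an unadjusted edgeR p of 0.000404.

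Slco2a1, the prostaglandin transporter, had 1.95, 2.17, 2.54 and 0.852 CPM in 5_1, 5_2, 5_3 and 5_4. Its difference without 5_2 was -1.39 ± 0.432 (SE) on the log2 scale, with an unadjusted edgeR p of 0.00221. Bhlhe40, a repressor of the basic helix-loop-helix family, had 1.95, 2.17, 1.82 and 0.947 CPM. In both genes the library labelled adenoma 5_2 was at the level of normal mucosa and 5_4 below it.

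Celsr1, a cadherin of planar cell polarity, had 1.60, 1.86, 1.63 and 0.663 CPM. Arid3a, a DNA-binding factor, had 2.99, 3.41, 3.84 and 1.61 CPM, and Il4ra, the receptor chain for interleukin 4, had 0.695, 0.621, 0.586 and 0.0947 CPM. Adenoma 5_4 was the lowest of the 4 libraries at each of these 3 genes, at Il4ra from 1 count. Other regions showed no shift in 5_4: Runx1, a transcription factor, had 1.18, 1.18, 1.17 and 1.14 CPM, and Nos2, the inducible nitric oxide synthase, had 1.81, 2.05, 1.76 and 1.70 CPM.

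Gene ends gave fewer calls in the other strains, 11 or 0.0913% of those tested, and 663, or 5.5%, were under an unadjusted edgeR p of 0.05. The sign was the same at 9 of the 11 in 5_4 against 5_3, where 52.8% of all gene ends shared it, and at 5 in 5_2 against 5_1, where 49.1% did. Without 5_2 it was the same at 10, against 52.7%. At an unadjusted edgeR p under 0.05 the same sign held at 1 of the 11 in 5_4 against 5_3, where 2.71% of all gene ends passed, and at 2 without 5_2, where 2.64% passed. Itpka, a kinase of inositol trisphosphate whose promoter is shown above, had 0.156 CPM in 5_1, 0.208 in 5_2, 0.131 in 5_3 and 1.26 in 5_4 at chr2:119741251-119742750. Only 5_4 was high, with 11 counts against 2, 3 and 2. Its difference from both normal mucosa libraries was 3.10 ± 0.908 (SE) on the log2 scale, with an unadjusted edgeR p of 0.00116.

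Plek2, a pleckstrin family protein, was lower in adenomas of the other strains by a log2 difference of -0.75 and had 1.25, 0.763, 1.05 and 0.345 CPM in C1_5F1. Pla2g10, a secreted phospholipase A2, fell by 0.79 on the log2 scale in the other strains at an adjusted edgeR p of 0.000778. In C1_5F1 it had 1.79, 1.67, 0.789 and 1.15 CPM, with the groups overlapping. The difference between strains for this gene end had an unadjusted p of 0.0135, and no gene end was called in that comparison by edgeR, with 422 of 12046 under an unadjusted p of 0.05, or 3.50%. Among CpG-dense regions 0 were called in it and 1434 were under that limit, or 2.93%. For windows called in the other strains, 58 of 64 had the same sign in 5_4 against 5_3 and 17 of 64 in 5_2 against 5_1, where 51.2% and 49.4% of all windows did.

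Some features separated both libraries labelled adenoma from both normal mucosa libraries, though none at an adjusted edgeR p under 0.05. Zbtb38, a zinc finger protein that binds methylated DNA, had 1.56 CPM in 5_1, 3.54 in 5_2, 1.58 in 5_3 and 3.45 in 5_4 at its gene end (chr9:96731251-96732750). Both adenoma libraries were high, with a log2 difference of 1.16 ± 0.334 (SE) and an adjusted edgeR p of 0.998. That the groups did not overlap was a condition for naming it, and 16.2% of all gene ends had both adenomas above. In the other 4 strains the log2 difference at Zbtb38 was 0.10.

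Evpl, a plakin of the epithelial cell envelope, had 0.156, 0.694, 0.0657 and 0.575 CPM in 5_1, 5_2, 5_3 and 5_4, from 2, 10, 1 and 5 counts. Leprot, a protein of receptor trafficking, had 0, 3, 0 and 5 counts. Cel, a lipase, had 1, 7, 1 and 4 counts, and Rp1l1, a photoreceptor protein, had 0, 5, 5 and 14. At Rp1l1 the equal counts of 5_2 and 5_3 were set apart only by scaling to library size. The largest of these counts was 14, so single reads moved the values, and each gene end had an adjusted edgeR p of 0.998. Also higher by the same rule were C1rb, Tsga10ip, Zcchc9, Zfp422 and Zswim8.

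In the lower direction Enpp2, the autotaxin that makes lysophosphatidic acid, had 0.467, 0.0694, 0.723 and 0.115 CPM, with both adenoma libraries low. Its log2 difference was -2.72 ± 0.823 (SE), with an adjusted edgeR p of 0.998. Mtmr7, a myotubularin phosphatase, had 1.48, 0.139, 0.592 and 0.230 CPM, and Lpcat2, an acyltransferase of phospholipids, had 3, 0, 9 and 0 counts. In the test of C1_5F1 against the other strains, Enpp2 had an unadjusted p of 0.0011, Mtmr7 of 0.0015 and Lpcat2 of 0.00163, with adjusted edgeR p of 1.0. Sh3gl3, an endophilin, had 2.18, 0.833, 2.04 and 1.15 CPM. Cyp4f17, Panx1, Gnaz, Nbas, Man2a2 and Gbp2b were lower by the same rule.

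CpG-dense regions of lowest p included one 40859 bp from Nt5e, the ectonucleotidase CD73, with 1.11, 2.17, 0.912 and 2.84 CPM. Its log2 difference was 1.28 ± 0.307 (SE), and adenomas of the other strains differed by -0.05. Regions in Syne2, a nuclear envelope protein, with 0.0695, 0.559, 0.0651 and 0.568 CPM, and in Ulk4, a pseudokinase, with 0.208, 0.869, 0.260 and 1.04 CPM, were also higher in both adenoma libraries. Their adjusted edgeR p was 1.0.

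Lower in both was a region in Atp9a, a phospholipid flippase, with 0.834, 0.186, 0.781 and 0.0947 CPM. Ppard, a nuclear receptor for fatty acids, had 8, 1, 5 and 0 counts. Gata4, a transcription factor of the proximal intestine, had 22, 0, 5 and 2 counts over chr14:63269251-63269750. Normal mucosa 5_1 carried most of the Gata4 counts, and without 5_2 the unadjusted edgeR p was 0.061.

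At single windows, Rab11fip4, a recycling endosome adaptor, had 11, 0, 11 and 0 counts in 5_1, 5_2, 5_3 and 5_4, with an unadjusted edgeR p of 2.93e-06 among 1172069 windows and an adjusted p of 1.0. A window 129478 bp from Cited2, a transcriptional coregulator, had 2, 16, 1 and 7 counts. Dnajc3, a chaperone of the endoplasmic reticulum, had 10, 0, 6 and 0 counts. All 3 windows were picked for having the groups apart, and a count of 0 allows up to 3 counts. Over all windows tested, both adenoma libraries lay above both normal mucosa libraries at 14.6% and below both at 18.2%. Among tiles of 10 kb, the one in Phyhipl had 2.16, 1.00, 2.74 and 0.895 CPM, and one in Syt1, a synaptic vesicle calcium sensor, had 5.17, 6.93, 5.22 and 10.1 CPM.

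Gene lists were described by counts and medians, beside all gene ends, of which 6193 were above 0 and 5853 below, with a median log2 difference of 0.02. Genes methylated in human colorectal cancer had 52 tested members, 23 above 0 and 29 below, with a median of -0.08. Cdh1, which encodes E-cadherin, was the 1 member of these 52 with an unadjusted edgeR p under 0.05, where 3.47% of all gene ends had one. This count does not set the list apart. The 0.156, 0.763, 0.131 and 0.230 CPM of Cdh1 were high in the library labelled adenoma 5_2 alone. Slc5a8, a monocarboxylate transporter on this list, had 1.56, 0.833, 1.12 and 0.575 CPM.

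Wnt antagonists had 7 of 20 members above 0 and a median of -0.23. Tle2, a Groucho corepressor, was the 1 member with an unadjusted edgeR p under 0.05, beside 3.47% of all gene ends. It had 6, 3, 12 and 2 counts. Wnt targets and intestinal stem cell genes had 6 of 14 above 0. Msi1, an RNA-binding protein of stem cells, had 7, 4, 9 and 1 counts there. Cd44, a surface receptor and Wnt target, had 1.09, 2.15, 1.45 and 1.72 CPM, with both adenoma libraries above both of normal mucosa. Hox genes had 14 of 31 above 0, imprinted genes 22 of 38 and DNA methylation enzymes 7 of 12, and no member of these 3 lists had an unadjusted edgeR p under 0.05. Hoxa7, of the Hox genes, had 0.467, 0.833, 0.394 and 0.920 CPM, and Dnmt1, the maintenance methyltransferase, had 2.10, 3.19, 1.58 and 2.07 CPM.

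Epithelial transcription factors had 9 of 17 above 0 and a median of 0.28. Pdx1, a homeobox factor of the duodenum, had 0, 10, 1 and 1 counts, and Prdm1, a repressor of the fetal enterocyte, had 6, 1, 9 and 2 counts. In Pdx1 the library labelled adenoma 5_2 alone was high. Enterocyte genes had 13 of 21 above 0, with Treh, the brush border trehalase, at 4, 0, 4 and 1 counts. Secretory cell genes had 9 of 21 above 0, with Lyz1, a lysozyme of Paneth cells, at 1.48, 0.902, 0.789 and 0.460 CPM.

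Germline genes had 32 of 49 above 0, with a median of 0.06. Between 5_4 and 5_3 the numbers were 34 of 49 and a median of 0.27, and between 5_2 and 5_1 they were 21 of 49 and -0.09. Over all 12046 gene ends 5816 were above 0 in the first of these pairs, with a median of -0.015, and 6122 in the second, with a median of 0.012. The summed level of the germline genes was 187, 176, 158 and 195 CPM in 5_1, 5_2, 5_3 and 5_4, so 5_3 was lowest and 5_4 highest. Over all gene ends the sums were 10500, 10500, 10100 and 10600 CPM, with 5_3 lowest and 5_4 highest there too. Tex15, a meiotic gene, went the other way with 1.40, 0.555, 1.12 and 0.460 CPM.

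Markers of other cell types were summed as lists over their gene ends. B cell genes summed to 21.4, 22.4, 19.6 and 18.4 CPM in 5_1, 5_2, 5_3 and 5_4, with 6 of 15 above 0. T cell genes summed to 33.1, 35.3, 33.3 and 37.9 CPM, with 11 of 22 above 0, and myeloid genes to 22.9, 25.6, 24.3 and 26 CPM, with 12 of 19. Endothelial genes had 11 of 13 above 0, with sums of 18.1, 20.6, 17.5 and 21.3 CPM, and stromal and muscle genes 10 of 19. The sums of T cell, myeloid and endothelial genes were higher in both adenoma libraries than in both normal mucosa libraries. Those of B cell genes overlapped, as did those of stromal and muscle genes, at 16.0, 14.8, 14.3 and 14.3 CPM. Both adenoma libraries were also above at 16.2% of all gene ends, about the share that random order gives. The order of these sums therefore shows no difference between the groups. Cd3g and Gzma among the 22 T cell genes and Blnk among the 15 B cell genes had an unadjusted edgeR p under 0.05, beside 3.47% of all gene ends. These 3 had lower levels in adenomas, although the T cell sum was higher. Cd3g, a chain of the T cell receptor complex, had 3, 1, 7 and 0 counts. MeDIP counts at a marker follow the methylation at its gene end, not its expression, so these sums give no share of cells.

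At the gene end of Apc the levels were 2.10 CPM in 5_1, 1.74 in 5_2, 1.97 in 5_3 and 0.690 in 5_4. Only 5_4 was low, from 6 counts, and the log2 difference over both adenomas was -0.62 ± 0.378 (SE), with an adjusted edgeR p of 0.998. In the other 4 strains it was 0.00.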

How the data were processed

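MeDIP libraries were sequenced on an Illumina GAIIx, per the labels. The authors deposited counts per 250 bp window and a CpG density score, per the file headers, after alignment to mm10 using BWA, as the submitters' processing notes record; how reads were filtered and counted is not given in those sources. No count exceeded 500.

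Windows of chromosomes 1 to 19 were summed to gene ends, CpG-dense regions (runs of windows scoring 10 or more) and 10 kb tiles. RefSeq gave the strand of 16456 gene ends, and for 4205 the end with the higher density was taken. Some gene ends (2683) shared windows with another. X was not tested, as no sex is labelled. Features with 10 counts, scaled to library size, in at least 2 libraries and 15 in all were tested with edgeR 4.0.16 in R 4.3.3 (TMM scaling, quasi-likelihood test, 15 groups, all 46 libraries, Benjamini-Hochberg adjustment over all features of a kind, threshold 0.05). DESeq2 1.42.0, RLE scaling, other filters, offsets by CpG density in 20 bins and fits without each library were alternatives. Each SE of an edgeR log2 difference is that difference, without sign, divided by the square root of its F statistic. It therefore adds nothing to the p-value of the same test. The tests were checked on simulated data. Python 3.11.15 and scipy 1.17.1 gave the permutation test.

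The rule for named features took those of lowest p per direction with both adenomas on the same side of both normal mucosa libraries, those of lowest p in the other 4 strains and in the difference between strains, Apc, and 2 members of each gene list, of which the text gives some; CpG-dense regions of the other strains were named after their values were seen. Members, rule and lists were chosen with earlier results of these data known. Labels do not pair the libraries; the block of 5_1 with 5_2 and 5_3 with 5_4 follows the chromosome 1 segments.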

Additional observations from a re-analysis of the deposited data

How the results depend on the processing

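Calls in C1_5F1 remained 0 for gene ends, CpG-dense regions and windows under each alternative run, with no DESeq2 or unfiltered fit run for windows. Tiles had 2 calls when the 4 libraries were fitted alone, both on chromosome 18 and led by the library labelled adenoma 5_2, with 145 and 151 counts. Normal mucosa 5_1 had 20 and 65 counts at these tiles, 5_3 had 36 and 35, and 5_4 had 12 and 15. The replicate block gave 0 calls, with 411 gene ends and 1394 regions under an unadjusted p of 0.05. Leaving out 1 library gave 0 to 0 calls and 381 to 574 gene ends, 1395 to 1826 regions, 5944 to 15657 tiles and 41339 to 60721 windows under that limit, the highest each time without 5_2. With a minimum count of 20 these were 161 gene ends and 893 regions and 9264 windows, unfiltered 868 gene ends and 2284 regions, and within 2000 bp of gene starts 678. The difference in CpG-dense share ran from 0.076 points without 5_4 to 1.39 without 5_2. Windows called in the other strains numbered 101 with density offsets and 40 with a minimum count of 20, in place of 64, and 2 without B6, 12 without C5F1, 27 without B6xPWD and 98 without C5. On the B6 to PWD scale the gap on chromosome 1 was 43.6 points, 46.3 with windows at least 4-fold different and 49.0 with windows lower in PWD, and the end of chromosome 5 averaged 6.50%, or 12.2% with windows lower in PWD. Fits of 5_2 against 5_1 and 5_4 against 5_3, and the alternatives for the other strains other than RLE scaling and leaving out C1_5F1, were chosen after seeing the data. Depth limits 5_4 most, where 1 count at a gene end is about 0.115 CPM.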
